A study of Arabidopsis thaliana with 9 samples.

Results

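The plastid chromosome of Arabidopsis thaliana is represented in the count files by 133 rows of 33610, chosen as every row whose locus ID begins with ATCG. All 133 were kept as members whatever their level. The study sequenced messenger RNA from rosette leaves of Col-0 plants, 5 to 6 weeks old, grown at 22 °C with 8 h of light. Its 3 groups were untreated plants, mock treated plants, and plants sprayed with spores of Alternaria brassicicola strain MUCL 20297 at 1000000 spores per ml in 0.01% Silwet L 77. Inoculated leaves were taken 3 days after the spray. Each group held 3 libraries that the labels call biological replicates, and the labels give neither the content of the mock liquid nor a harvest time for mock or untreated plants. All 9 libraries were made from polyadenylated RNA isolated from 3 µg of total RNA and share that selection. The 4 leaf markers (RBCS1A, LHCB2.1, CA1, GAPA) summed to 22721 to 25074 CPM (counts per 1000000 reads in genes, after TMM scaling) in untreated, 20554 to 22043 in mock and 11704 to 12234 in Alternaria leaves. The 5 root markers summed to at most 2.64 CPM and the 4 flower markers to at most 6.47 CPM in any library.

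Plastids keep a small circular genome that encodes core subunits of the photosystems, the cytochrome b6f complex, the ATP synthase, the large subunit of Rubisco, the NDH complex, part of the plastid ribosome and the core of a bacterial-type RNA polymerase. The other subunits of these complexes, and the sigma factors that direct the polymerase to promoters, are encoded in the nucleus. Plastid genes are mostly transcribed in long units that are cut, trimmed and edited, and nuclear-encoded RNA-binding proteins and nucleases set how long each piece lasts. In plastids a poly(A) tail is short-lived and marks RNA for decay, unlike the stabilising tail of nuclear messengers. Plastid reads in a poly(A)-selected library are therefore those that passed the selection and are no measure of all plastid RNA. Alternaria brassicicola is a fungus that kills leaf tissue and feeds on it, and leaves it infects turn yellow around the lesions.

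The RefSeq annotation of assembly TAIR10.1 lists 129 plastid genes, of which 85 code for proteins, 37 for tRNAs and 7 for rRNAs. Its 78 distinct protein symbols comprise 15 psb (photosystem II), 5 psa (photosystem I), 6 pet (cytochrome), 6 atp (ATP synthase), 11 ndh (NDH complex), 4 rpo (RNA polymerase), 9 rpl and 12 rps (ribosomal proteins), and 10 others. That annotation lists them under other tags, so rows are given here by locus ID. A name could be read for 6 rows, from notes on nuclear genes that state their closest plastid match. These are ATCG00430 (photosystem II reaction center protein G, an older name for a subunit of the NDH complex), ATCG00530 (a CemA-like proton extrusion protein), ATCG00660 and ATCG01310 (ribosomal proteins L20 and L2 of the large subunit), ATCG00750 (ribosomal protein S11 of the small subunit) and ATCG00670 (the plastid-encoded ClpP subunit of the Clp protease).

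Plastid rows took a smaller share of the reads in genes in mock than in untreated leaves, and a smaller one again in Alternaria leaves. The share was 4.66, 5.90 and 5.97% in untreated replicates 1, 2 and 3, 4.34, 4.32 and 3.51% in mock, and 2.66, 3.22 and 3.02% in Alternaria. No library of one group reached the range of another. The means were 5.51% ± 0.733, 4.06% ± 0.472 and 2.97% ± 0.287 (SD, n = 3 each), and an exact permutation test over all arrangements of the 9 libraries gave p = 0.00357, the smallest it can give. Each pair of groups gave p = 0.1 in a two-sided exact permutation test (adjusted p = 0.1 over the 3 pairs), which is the smallest that 3 against 3 allows. Depth was not limiting, with 22713147 to 36061529 reads in genes and 869181 to 1821743 plastid reads in a library. These are shares of reads that passed the poly(A) selection, so they do not measure the amount of plastid RNA. In bulk leaves, fewer cells or plastids and less RNA in each cannot be told apart either.

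**Figure D1:**
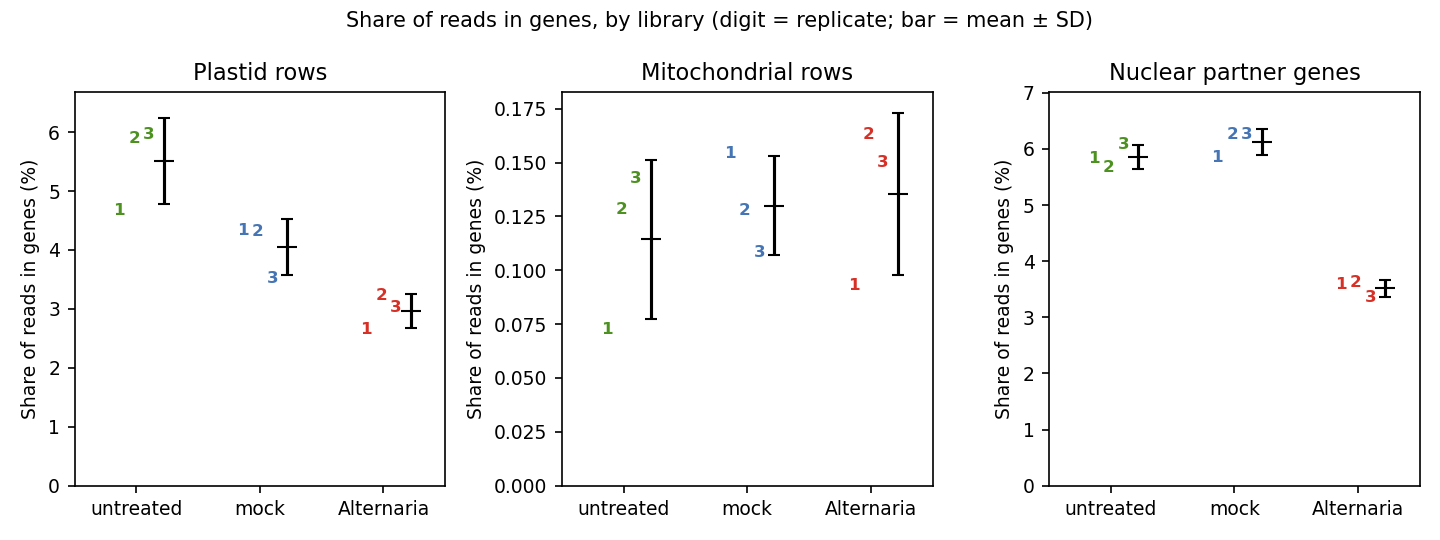
Share of the reads in genes (%, vertical axis) held by plastid rows, mitochondrial rows and 32 nuclear partner genes in each library; digits are replicate numbers and bars are the group mean ± SD (n = 3). Plastid shares stood at 4.66 to 5.97% in untreated, 3.51 to 4.34% in mock and 2.66 to 3.22% in Alternaria leaves without overlap, mitochondrial shares overlapped in all 3 groups, and the partner genes were low in Alternaria leaves.

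The mitochondrial chromosome, the other organelle genome, did not show this order. Its 146 rows held 0.0726, 0.128 and 0.143% of the reads in untreated replicates 1, 2 and 3, 0.154, 0.128 and 0.108% in mock, and 0.0928, 0.163 and 0.150% in Alternaria leaves. The 3 groups overlapped (exact permutation p = 0.725). The log2 ratio of plastid to mitochondrial reads was 5.64 ± 0.324 in untreated, 4.97 ± 0.141 in mock and 4.49 ± 0.302 in Alternaria leaves (SD, n = 3, exact permutation p = 0.00714 over the 3 groups). The Alternaria and mock ratios overlapped (pair p = 0.2, exact). Within every group the library with the lowest plastid share also had the lowest mitochondrial share and the lowest share of reads outside any feature, namely untreated replicate 1, mock replicate 3 and Alternaria replicate 1. Reads outside any feature made up 2.43 to 3.47% of all lines in untreated, 2.63 to 3.01% in mock and 2.11 to 2.70% in Alternaria libraries, and reads that aligned to several places 4.68 to 5.79% in untreated and 4.51 to 5.26% in mock libraries, with every Alternaria library below 4.51%. The part these shares have in the plastid result was not tested.

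The plastid share was also set against 32 nuclear genes for subunits of the same photosystems, cytochrome b6f, ATP synthase and Rubisco. Those nuclear partners held 5.86% ± 0.205 of the reads in untreated, 6.12% ± 0.234 in mock and 3.52% ± 0.151 in Alternaria leaves (SD, n = 3, exact permutation p = 0.00714), with untreated and mock overlapping. The log2 ratio of all plastid reads to partner reads was -0.32, 0.06 and -0.03 in untreated replicates 1, 2 and 3, -0.43, -0.53 and -0.83 in mock, and -0.43, -0.17 and -0.15 in Alternaria leaves. All 3 mock values lay below all untreated values and below all Alternaria values, and the exact 3-group permutation test gave p = 0.0393. That p was 0.05 or more in 7 of the 9 leave-one-out runs, between 0.0107 and 0.154.

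Reads were concentrated in few rows. ATCG00480 alone held 18.5% of all plastid reads, the 4 most abundant rows (ATCG00480, ATCG00280, ATCG01130 and ATCG00270) 43.1%, the 12 most abundant 69.7%, and 31 rows held 90%. Longer rows collect more reads and no row lengths of the authors' build were used, so these shares do not rank transcript numbers. The 12 most abundant rows held 66.5 to 69.6% of plastid reads in untreated, 70.4 to 71.8% in mock and 69.1 to 70.2% in Alternaria libraries. Without these 12 rows the plastid share still differed between the groups (exact permutation p = 0.00714).

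Of the 133 members 105 had enough reads to be tested, and 93 of these averaged at least 5 CPM. The other 28 held 0 to 58 reads each over all 9 libraries, 0.00226% of plastid reads in all, and 7 of them had no read anywhere. All 28 lie in a pair of ID runs, ATCG00830 to ATCG01000 (14 of 19 rows) and ATCG01140 to ATCG01310 (14 of 18 rows). These runs held 0.0569 and 0.154% of plastid reads, while the 96 rows outside them held 99.8% and were all tested. RefSeq lists 7 protein symbols at 2 places on the plastid chromosome (ndhB, rpl2, rpl23, rps7, rps12, ycf1 and ycf2), and ATCG01310, the row named L2, is in the second run. Reads that match 2 places are counted in the line for alignments that are not unique, so low counts in these runs do not show low RNA.

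In Alternaria against mock leaves 46 of the 105 tested rows were called lower and 0 higher (edgeR quasi-likelihood test, adjusted p under 0.05 over all 22019 genes tested). Over all genes 55.6% were called in either direction, 26.1% lower and 29.5% higher. At an unadjusted p under 0.05 there were 50 plastid rows. The median log2 change of the plastid rows was -0.36, against -0.02 over all genes tested, and 98 of the 105 estimates were below 0. Of 49 tested mitochondrial rows 12 were called higher and 0 lower. Groups of 3 did not overlap for 45 plastid rows, where 63.3% of all genes tested did not. The count of 46 was 28 without mock replicate 2 and 30 without Alternaria replicate 1, of which 2 were then higher, and 62 under upper-quartile scaling.

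Among the 12 most abundant rows, the largest falls against mock were those of ATCG00780 and ATCG00790. ATCG00790 measured 2754, 3300 and 2998 CPM in untreated replicates 1, 2 and 3, 2340, 2280 and 1691 CPM in mock, and 923, 1139 and 1015 CPM in Alternaria leaves. Every Alternaria library lay below every mock library, and every mock library below every untreated one. Its log2 change against mock was -1.04 ± 0.12 (SE, edgeR adjusted p = 1.41e-05). ATCG00780 changed by -1.04 ± 0.11 on the log2 scale (adjusted p = 3.77e-06), from 1344 ± 215 CPM in mock to 652 ± 50.5 CPM in Alternaria leaves (SD, n = 3).

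ATCG00480, the most abundant row, measured 9326, 10149 and 11901 CPM in untreated, 7021, 9260 and 7707 CPM in mock, and 4590, 5151 and 4985 CPM in Alternaria leaves. Its groups did not overlap in any pair. Its log2 change against mock was -0.70 ± 0.11 (edgeR adjusted p = 0.000178). ATCG01130 measured 3660, 4775 and 5528 CPM in untreated, 4002, 3934 and 3118 CPM in mock, and 2018, 2071 and 2070 CPM in Alternaria leaves. Its 3 Alternaria libraries stood close together and far below all 6 others, while untreated and mock overlapped. It fell by 0.84 on the log2 scale against mock (SE 0.13, edgeR adjusted p = 0.000155). ATCG00470, ATCG00800, ATCG00810 and ATCG01020 fell by 0.84 to 0.86, each with an adjusted p of at most 0.0014 in the same test.

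**Figure D2:**
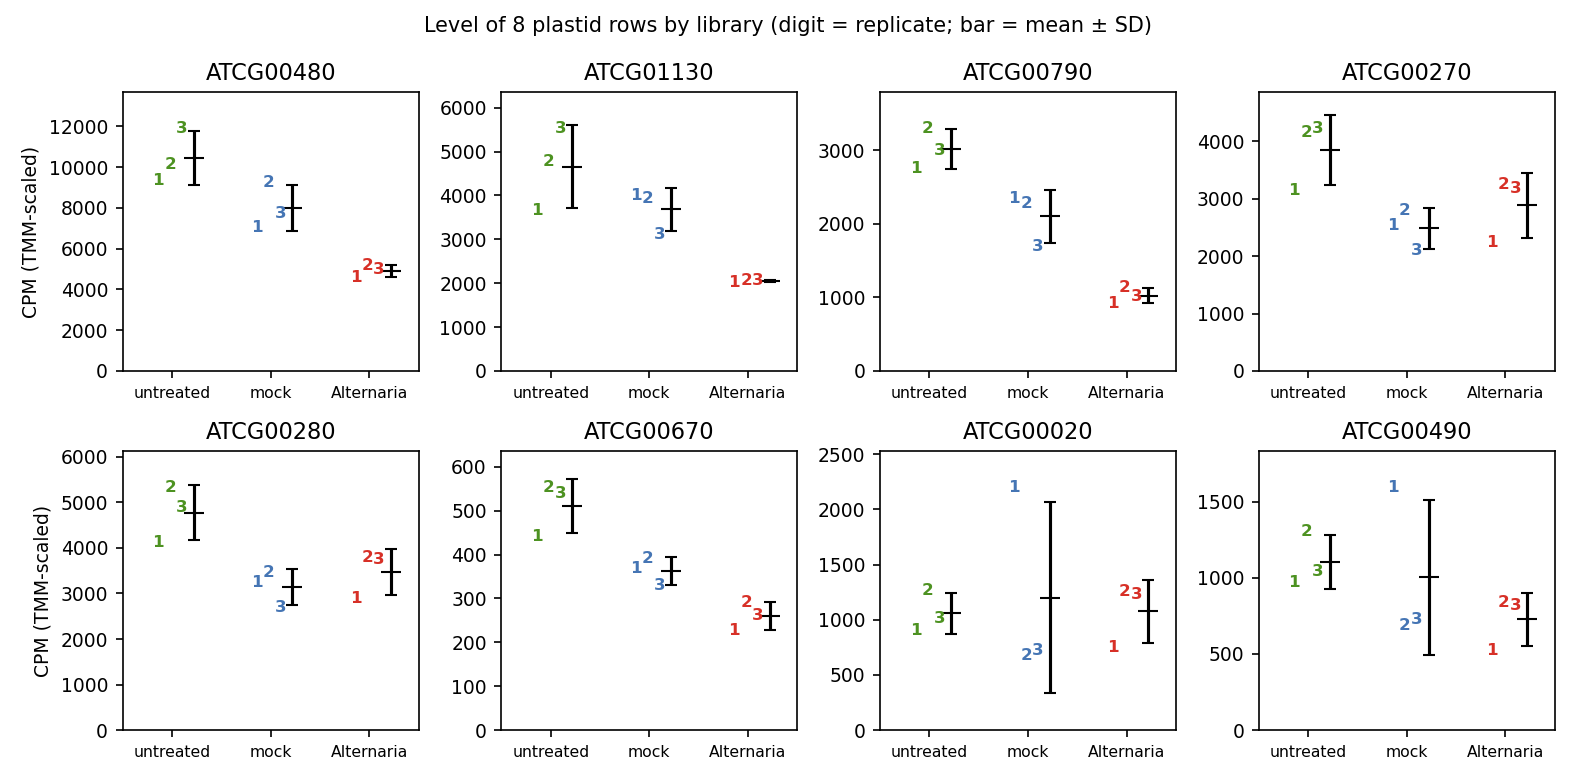
Level (CPM, TMM-scaled, vertical axis) of 8 plastid rows in each library; digits are replicate numbers and bars are the group mean ± SD (n = 3). ATCG00480 and ATCG00790 stepped down from untreated through mock to Alternaria, ATCG00270 and ATCG00280 overlapped between mock and Alternaria leaves, and mock replicate 1 was high in ATCG00020 and ATCG00490.

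The rows with the highest changes against mock were not called. Among the 6 highest of at least 5 CPM were the neighbours ATCG00270, ATCG00280 and ATCG00290. ATCG00280 measured 4114, 5322 and 4893 CPM in untreated, 3247, 3458 and 2701 CPM in mock, and 2899, 3794 and 3739 CPM in Alternaria leaves. Mock and Alternaria overlapped, with both below untreated, and the log2 change against mock was 0.15 ± 0.13 (edgeR adjusted p = 0.347). ATCG00270 measured 2483 ± 351 CPM in mock and 2889 ± 564 CPM in Alternaria leaves, a log2 change of 0.22 ± 0.16 (adjusted p = 0.255). ATCG00290, with 127 ± 31.4 and 178 ± 50.4 CPM, had the highest estimate of the 105 at 0.48 ± 0.25 (adjusted p = 0.121). Without Alternaria replicate 1, ATCG00270 and ATCG00290 were called higher, at 0.38 and 0.67 (adjusted p = 0.0384 and 0.0459).

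Besides ATCG00780 and ATCG00790, the 6 lowest estimates among rows of at least 5 CPM were those of ATCG00220, ATCG00950, ATCG01110 and ATCG01120. ATCG00220 measured 288, 287 and 390 CPM in untreated, 380, 512 and 357 CPM in mock, and 150, 225 and 206 CPM in Alternaria leaves. Untreated and mock libraries overlapped, and all 3 Alternaria libraries lay below them. It fell by 1.10 on the log2 scale against mock (SE 0.17, edgeR adjusted p = 0.000134). ATCG01110 and ATCG01120 fell by 0.92 and 1.01 (SE 0.10 and 0.09, adjusted p = 8.87e-06 and 1.41e-06). ATCG00950, in the first run with untested rows, measured 16.5, 9.23 and 20.1 CPM in untreated, 49.8, 43.2 and 15.6 CPM in mock, and 0.112, 0.705 and 10.9 CPM in Alternaria leaves. Its libraries differed widely within each group, and its log2 change against mock was -3.26 ± 0.82 (adjusted p = 0.00436). Without Alternaria replicate 3 it was -6.53, and with another library left out it lay as high as -2.64. In the authors' deposited DESeq2 table it was at -1.43 and not called (adjusted p = 0.0843).

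Against untreated leaves, Alternaria leaves had 92 of 105 plastid rows called lower and 0 higher, with 93 at an unadjusted p under 0.05. Over all genes tested 64.9% were called in either direction, 31.8% lower. The median log2 change was -1.03 for the plastid rows and -0.04 for all genes tested, and 103 estimates were below 0. Groups did not overlap for 92 rows (68.6% of all genes tested). The deepest falls among the abundant rows were ATCG00790 (-1.56 ± 0.13), ATCG00780 (-1.54 ± 0.11), ATCG00810 (-1.48 ± 0.12) and ATCG00800 (-1.47 ± 0.10), as log2 change ± SE. ATCG00800 measured 2444, 2509 and 2586 CPM in untreated, 1889, 1546 and 1419 CPM in mock, and 859, 890 and 967 CPM in Alternaria leaves, and each step lay outside the spread of the libraries. ATCG00250, at 15.9 ± 4.38 CPM in untreated and 5.64 ± 0.408 CPM in Alternaria leaves, was also called lower (edgeR adjusted p = 2.33e-05). ATCG00950 was at -2.01 ± 0.83 (adjusted p = 0.0502). This row was called lower under RLE, upper-quartile and nuclear-only scaling, without a filter, under limma-voom and in 3 of the 9 leave-one-out fits. Leave-one-out values ran from -5.27 without Alternaria replicate 3 to -1.38 without Alternaria replicate 1. The authors' deposited DESeq2 table did not call it (adjusted p = 0.295).

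Rows not called against untreated leaves included ATCG00020 (0.02 ± 0.37, adjusted p = 0.956), ATCG00290 (-0.19 ± 0.25, adjusted p = 0.524) and ATCG00580 (-0.26 ± 0.17, adjusted p = 0.18) by the edgeR test. Under upper-quartile scaling ATCG00580 was called lower (-0.47, adjusted p = 0.0258). ATCG00270 and ATCG00280 were called lower, at -0.41 ± 0.16 and -0.46 ± 0.13 (adjusted p = 0.0335 and 0.00734). The call for ATCG00270 was lost without untreated replicate 2 or 3 or Alternaria replicate 1, with adjusted p up to 0.141.

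Mock leaves had 73 of 105 plastid rows called lower than untreated leaves and 0 higher, with 85 at an unadjusted p under 0.05. Over all genes tested 29.3% were called in either direction, 14.1% lower and 15.1% higher. The median log2 change was -0.66, against -0.01 over all genes tested, and groups did not overlap for 66 rows (44.7% of all genes tested). Among 49 mitochondrial rows 0 were called higher and 1 lower. The lowest rows of at least 5 CPM were of modest abundance and included ATCG00610 (-1.07 ± 0.18), ATCG01070 (-1.03 ± 0.17), ATCG00170 (-1.03 ± 0.14), ATCG00260 (-0.98 ± 0.18) and ATCG00600 (-0.92 ± 0.19), as log2 change ± SE, all called. ATCG00170 measured 159, 238 and 226 CPM in untreated, 111, 108 and 85.9 CPM in mock, and 90.8, 103 and 96.2 CPM in Alternaria leaves. Its mock and Alternaria libraries overlapped, well below the untreated ones (edgeR adjusted p = 0.000238 for mock against untreated).

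No row with a positive estimate in mock leaves was called. Among rows of at least 5 CPM, ATCG00950 stood at 1.26 ± 0.72 (edgeR adjusted p = 0.213, but 0.0268 in the fit of those 6 libraries alone and 0.0291 without Alternaria replicate 3), ATCG01180 at 0.58 ± 0.43 (adjusted p = 0.342) and ATCG00220 at 0.37 ± 0.17 (adjusted p = 0.121). ATCG01020 measured 937, 899 and 1445 CPM in untreated and 849, 1325 and 1043 CPM in mock leaves, which overlapped, at -0.03 ± 0.18 (adjusted p = 0.923). ATCG00480 was called lower at -0.39 ± 0.11 (adjusted p = 0.023), but its call was lost in 4 of the 9 leave-one-out fits, with adjusted p up to 0.105.

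**Figure D3:**
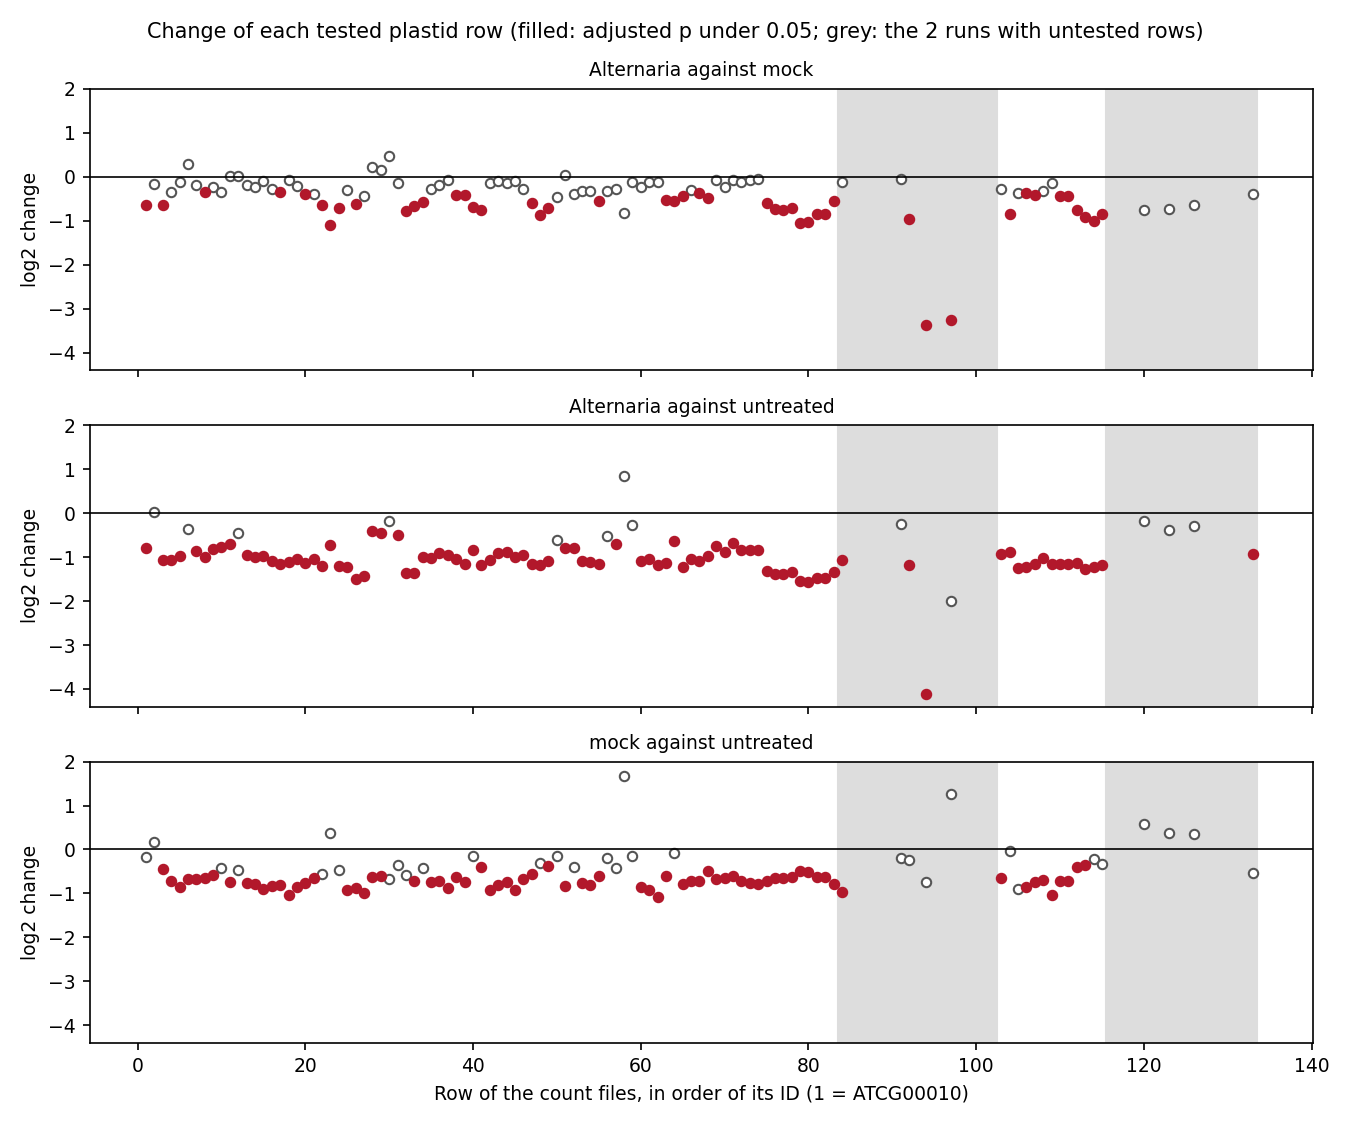
Log2 change (vertical axis) of each of the 105 tested plastid rows, in order of locus ID (horizontal axis), in the 3 comparisons; filled points have an adjusted p under 0.05 and grey bands are the 2 ID runs that hold all untested rows. Nearly all points lie below 0, called rows number 46, 92 and 73 from top to bottom, and neighbouring rows often lie at similar heights.

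The authors' deposited table called 49, 93 and 74 plastid rows in the same 3 comparisons. Of all genes with an adjusted p in the authors' deposited table, shares of 53.3, 50.6 and 29.7% were called, 28.7, 27.9 and 16.1% higher and 24.7, 22.7 and 13.6% lower.

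The 3 comparisons share libraries, so their calls are set side by side only. Of the 105 tested rows 31 were called lower in all 3. Another 41 were called lower in both mock and Alternaria than in untreated leaves but not in Alternaria than in mock leaves, and 14 were called lower in Alternaria than in either other group but not in mock leaves. Over all genes tested these 3 patterns of lower calls took 5.89, 4.60 and 14.1%, against 29.5, 39.0 and 13.3% of the plastid rows. Of the rest 6 were called only against untreated leaves in the Alternaria group, 1 only in Alternaria against mock, 1 only in mock against untreated, and 11 in none (5.67, 2.45, 0.604 and 25.8% of all genes tested).

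The plastid rows also moved together between libraries of one group. Over the 93 rows of at least 5 CPM, untreated replicate 1 was the lowest of its group in 85, mock replicate 3 in 83 and Alternaria replicate 1 in 85. The counts of called rows are therefore not counts of independent changes. The median coefficient of variation within a group was 18.4% in untreated, 15.9% in mock and 13.5% in Alternaria libraries for these 93 rows, against 6.08 to 7.81% over the 14736 tested genes of at least 5 CPM. Level and change were weakly related over the 93 rows, which share these libraries and their depth (Pearson r = -0.09, 0.00 and 0.11, Spearman rho = -0.21, -0.06 and 0.25, for Alternaria versus mock, Alternaria versus untreated and mock versus untreated).

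A pair of rows stood apart through mock replicate 1. ATCG00020 measured 905, 1264 and 1011 CPM in untreated, 2197, 672 and 725 CPM in mock, and 748, 1257 and 1229 CPM in Alternaria leaves. As a share of plastid reads it was 1.84, 2.12 and 1.65% in untreated, 5.11, 1.54 and 2.06% in mock, and 2.97, 4.03 and 4.09% in Alternaria libraries. ATCG00490 followed the same order in mock, with 1591, 689 and 727 CPM, and measured 1105 ± 176 CPM in untreated and 727 ± 175 CPM in Alternaria leaves. Neither row was called in any comparison (edgeR adjusted p from 0.0735 to 0.956). In Alternaria against untreated, ATCG00490 was called lower under upper-quartile scaling (-0.81, adjusted p = 0.0228), in the fit of those 6 libraries alone (-0.61, adjusted p = 0.01) and in the authors' deposited table (adjusted p = 0.000982). Without mock replicate 1, ATCG00020 went from -0.15 to 0.61 on the log2 scale in Alternaria against mock, where it was then called higher (adjusted p = 0.0253), and from 0.18 to -0.59 in mock against untreated, and ATCG00490 was called lower in both mock and Alternaria than in untreated leaves, at -0.63 and -0.61 (adjusted p = 0.0276 and 0.00597). The plastid share of all rows in mock replicate 1, at 4.34%, was close to the 4.32% of mock replicate 2, and mock replicate 1 was the highest of its group in 57 of the 93 rows.

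Neighbouring rows changed alike. Each of the 93 rows of at least 5 CPM was paired with the next such row by ID, giving 92 pairs, some of which span rows left out. The median absolute difference of their log2 changes was 0.16 in Alternaria against mock, 0.12 in Alternaria against untreated and 0.15 in mock against untreated. Over all pairs of the same 93 rows it was 0.30, 0.27 and 0.23. Pearson r between neighbours was 0.31, 0.44 and 0.23 and Spearman rho 0.55, 0.46 and 0.36, given without a test because neighbours share libraries and can share transcripts.

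A pair of runs of adjacent rows, picked after their values were seen, show the range of these patterns as shares of plastid reads, which do not depend on how the libraries were scaled. ATCG00270 to ATCG00300 held 15.9, 17.2 and 16.1% of plastid reads in untreated replicates 1, 2 and 3, 14.7, 15.6 and 14.8% in mock, and 22.1, 24.5 and 24.8% in Alternaria libraries. All 3 Alternaria libraries lay above all 6 others. The 4 rows had a median log2 change of 0.18 against mock with 0 called, and -0.44 against untreated with 3 called lower.

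ATCG00770 to ATCG00810 held 19.6, 18.0 and 16.8% in untreated, 17.7, 16.8 and 16.1% in mock, and 13.1, 12.4 and 12.3% in Alternaria libraries. Here all 3 Alternaria libraries lay below all 6 others, while untreated and mock overlapped. All 5 rows were called lower in every comparison, with median log2 changes of -0.85, -1.48 and -0.63 for Alternaria versus mock, Alternaria versus untreated and mock versus untreated. ATCG00750, the S11 row that lies shortly before this run, fell by 0.73, 1.37 and 0.65 (edgeR adjusted p = 0.000194, 5.86e-07 and 0.00173).

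**Figure D4:**
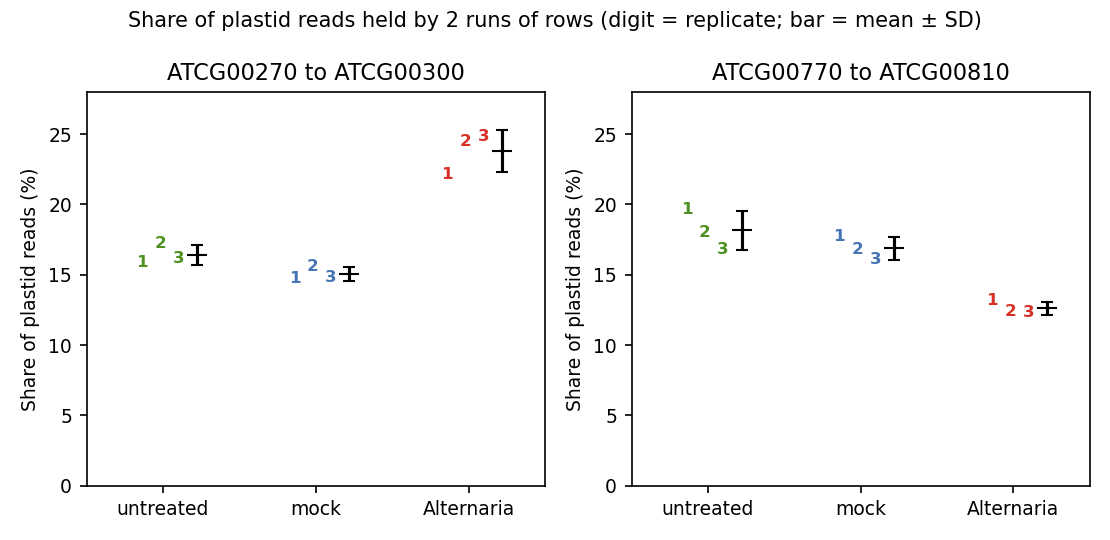
Share of plastid reads (%, vertical axis) held by rows ATCG00270 to ATCG00300 and by rows ATCG00770 to ATCG00810 in each library; digits are replicate numbers and bars are the group mean ± SD (n = 3). In Alternaria libraries the first run stood at 22.1 to 24.8% and the second at 12.3 to 13.1%, both outside the range of the other 6 libraries.

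With libraries scaled to their plastid reads, so that a change is one of composition, 6 rows were called higher and 6 lower in Alternaria against mock, 12 and 8 in Alternaria against untreated, and 7 and 6 in mock against untreated. In that fit 52.1, 71.8 and 49.8% of all genes tested were called, with 47.3, 68.3 and 47.6% higher and 4.89, 3.51 and 2.14% lower. In its dispersion step the prior degrees of freedom were without limit, against 6.27 in the TMM-scaled fit, so that step kept no spread of a row's own. The spread used by its F tests was not examined, and its calls are given as counts only.

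Among the 6 rows with a name, ATCG00670 (ClpP) measured 441, 552 and 539 CPM in untreated, 369, 390 and 329 CPM in mock, and 227, 291 and 262 CPM in Alternaria leaves. Its groups did not overlap, and it fell by 0.48, 0.97 and 0.49 on the log2 scale in Alternaria versus mock, Alternaria versus untreated and mock versus untreated (edgeR adjusted p = 0.00237, 6.11e-06 and 0.00542). As a share of plastid reads it lay between 0.857 and 0.933% in all 9 libraries. The L20 row ATCG00660 fell by 0.38, 1.10 and 0.72 (adjusted p = 0.0394, 2.17e-05 and 0.00272), the first of these being lost in 5 of the 9 leave-one-out fits. ATCG00430 fell by 0.88 and 0.75 in Alternaria and mock against untreated (adjusted p = 8.13e-05 and 0.00146), and the CemA-like row ATCG00530 by 1.11 and 0.80 (adjusted p = 0.000173 and 0.00636). The L2 row ATCG01310, at 1.54 to 3.97 CPM, fell by 0.92 in Alternaria against untreated (adjusted p = 0.00299) and was at -0.53 in mock (adjusted p = 0.0837).

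Nuclear genes for plastid transcription were read from lists of 6 sigma factors, 3 phage-type RNA polymerases and 15 proteins that attach to the plastid-encoded polymerase. Over all genes tested 26.1, 31.8 and 14.1% were called lower and 29.5, 33.1 and 15.1% higher in Alternaria versus mock, Alternaria versus untreated and mock versus untreated, and the counts of each list stand beside these. In the same order, sigma factors were called lower in 5 of 6, 6 of 6 and 4 of 6, with medians of -0.57, -0.74 and -0.33 and 1 called higher in mock. SIG5 (AT5G24120, listed as SIGE), a sigma factor known to respond to light and stress, measured 491, 371 and 350 CPM in untreated, 105, 103 and 114 CPM in mock, and 73.1, 84.0 and 102 CPM in Alternaria leaves. It fell by 1.91 in mock and 2.23 in Alternaria against untreated on the log2 scale (SE 0.14 each, edgeR adjusted p = 2.44e-06 and 3.54e-08). Against mock its change in Alternaria leaves was -0.32 ± 0.14 (adjusted p = 0.0647), and it was called lower under 7 alternatives, among them upper-quartile scaling (-0.49, adjusted p = 0.00362) and the fit of those 6 libraries alone (-0.34, adjusted p = 0.0191). SIG1 (AT1G64860, listed as SIGA), a general sigma factor of leaf plastids, was highest in mock at 392 ± 13.5 CPM, against 329 ± 25.5 in untreated and 249 ± 12.7 in Alternaria leaves, and fell by 0.65 in Alternaria against mock (adjusted p = 9.53e-06). Its rise of 0.25 in mock against untreated (adjusted p = 0.0246) was lost in 4 of the 9 leave-one-out fits. SIG4 (AT5G13730) fell by 0.60 and 0.97 in Alternaria against mock and against untreated (adjusted p = 3.97e-05 and 4.07e-07).

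The 3 phage-type polymerases transcribe organelle genes without sigma factors. Against mock all 3 estimates were below 0 in Alternaria leaves, and 1 was called lower. Against untreated leaves 2 were called higher in both mock and Alternaria leaves, and 1 was called lower in Alternaria leaves. The plastid enzyme RPOTP (AT2G24120, listed as SCA3) measured 66.5 ± 2.64 CPM in untreated, 94.0 ± 5.77 in mock and 82.7 ± 7.63 in Alternaria leaves (SD, n = 3). It rose by 0.50 in mock and 0.31 in Alternaria against untreated (edgeR adjusted p = 0.000811 and 0.0043), the second being lost under upper-quartile scaling at 0.12 (adjusted p = 0.242), and was at -0.18 in Alternaria against mock (adjusted p = 0.0697). Against mock RPOTP was called lower under upper-quartile scaling (-0.36, adjusted p = 0.00331) and with a filter of 1 CPM in 3 libraries (adjusted p = 0.0417). The same held without mock replicate 2 or Alternaria replicate 1 (adjusted p = 0.0362 and 0.0153). RPOTMP (AT5G15700), which serves both organelles, rose by 0.73 and 0.58 (adjusted p = 0.000377 and 0.000417) and was at -0.16 against mock (adjusted p = 0.214). Against mock RPOTMP was called lower under upper-quartile scaling and without Alternaria replicate 1 (adjusted p = 0.0135 and 0.0336). RPOTM (AT1G68990, listed as MGP3), the mitochondrial enzyme, was called lower in Alternaria leaves at -0.21 against mock and -0.20 against untreated (adjusted p = 0.0468 and 0.0498), each call being lost in 5 of the 9 leave-one-out fits and under DESeq2. Of the 15 polymerase-associated proteins 12 were called lower in Alternaria leaves against either group and 0 of 15 in mock against untreated leaves, with PTAC16 (AT3G46780) falling most, by 1.24 against mock (adjusted p = 5.14e-08).

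Among 18 nuclear factors of plastid RNA processing and decay, 16, 17 and 7 were called lower in Alternaria versus mock, Alternaria versus untreated and mock versus untreated, and 0 higher, with medians of -0.54, -0.67 and -0.11. Of all genes tested 26.1, 31.8 and 14.1% were called lower and 29.5, 33.1 and 15.1% higher. CSP41A (AT3G63140), an RNA-binding protein that associates with plastid messengers, measured 652, 625 and 589 CPM in untreated, 451, 437 and 439 CPM in mock, and 171, 183 and 158 CPM in Alternaria leaves. Its log2 changes were -1.37, -1.86 and -0.49 in the same order, all called (edgeR adjusted p = 2.79e-08, 1.57e-09 and 0.000444). Its partner CSP41B (AT1G09340, listed as CRB) fell by 1.26 and 1.52 in Alternaria against mock and untreated (adjusted p = 7.31e-08 and 8.77e-09). HCF152 (AT3G09650), a PPR protein needed to process a plastid transcript, fell by 0.45, 1.21 and 0.76 (adjusted p = 0.00364, 8.48e-07 and 0.000351). Plastid polynucleotide phosphorylase PNP (AT3G03710, listed as RIF10), which adds and degrades RNA tails, fell by 0.52 and 0.65 in Alternaria leaves (adjusted p = 0.00012 and 1.53e-05) and was at -0.12 in mock (adjusted p = 0.274).

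Nuclear subunits of the complexes that the plastid genome shares were lower in Alternaria than in mock leaves in nearly every list. Called lower were 10 of 10 photosystem II, 12 of 12 photosystem I, 2 of 2 cytochrome b6f, 3 of 4 ATP synthase, 4 of 4 Rubisco, 17 of 17 NDH, 33 of 33 plastid ribosome and 4 of 4 acetyl-CoA carboxylase genes, with medians from -0.66 to -1.38. Examples are PSAN of photosystem I (AT5G64040, -1.12 ± 0.07), PSBQA of the oxygen-evolving complex (AT4G21280, -1.10 ± 0.07), PETC, the Rieske protein (AT4G03280, -0.81 ± 0.07), ATPD (AT4G09650, -0.94 ± 0.07), NdhU (AT5G21430, -1.78 ± 0.07), plastid ribosomal RPL4 (AT1G07320, -0.98 ± 0.07) and CAC2, biotin carboxylase (AT5G35360, -0.85 ± 0.07), as log2 change ± SE, all called. RBCS2B (AT5G38420), a small subunit of Rubisco, was called lower too (edgeR adjusted p = 2.69e-08), though its near-identical copies make its counts uncertain. That limit holds for those copies in the Rubisco list as well, and so reaches the partner share and ratio. Against untreated leaves the counts were 9, 12, 2, 3, 4, 16, 33 and 4 in the same order. Of all genes tested 26.1% were called lower against mock and 31.8% against untreated leaves.

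Mock against untreated leaves gave another picture for the nuclear subunits. No gene was called lower in the photosystem II, photosystem I, cytochrome b6f, ATP synthase and Rubisco lists, with medians between -0.14 and 0.14, and 4 of 12 photosystem I genes were called higher, PSAD-2 (AT1G03130) by 0.56 ± 0.07 (edgeR adjusted p = 0.000138). Calls over all 13 nuclear lists in this comparison numbered 46 of 136 genes, where 29.3% of all genes tested were called in either direction. They numbered 24 without mock replicate 2, 29 without mock replicate 3 and 30 without untreated replicate 2. In the plastid ribosome list 22 of 33 were called lower, with a median of -0.24. In the NDH list 3 of 17 were lower and 2 higher, and 1 of 4 acetyl-CoA carboxylase genes was lower. Over all genes tested 14.1% were called lower and 15.1% higher, and the NDH counts are near these shares. The plastid rows had a median of -0.66 in this comparison. For the 32 partner genes, which leave out the ribosome, NDH and acetyl-CoA carboxylase lists, the ratio of plastid to partner reads differed between mock and untreated leaves by -0.50 on the log2 scale without overlap (pair p = 0.1, exact permutation, the smallest that 3 against 3 allows, adjusted p = 0.15 over the 3 pairs).

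The 8 nuclear Clp protease subunits, partners of the row ATCG00670, were called in both directions in Alternaria leaves. Against mock 3 were called higher and 1 lower, where 55.6% of all genes tested were called, and against untreated 3 and 2, where 64.9% were called. These shares are near those of all genes. CLPP3 (AT1G66670) measured 86.2 ± 5.08 CPM in untreated, 79.1 ± 2.29 in mock and 138 ± 17.5 in Alternaria leaves, and rose by 0.81 against mock (edgeR adjusted p = 7.93e-06). CLPR1 (AT1G49970) rose by 0.39 (adjusted p = 0.000495). None of the 8 was called in mock against untreated leaves.

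**Figure D5:**
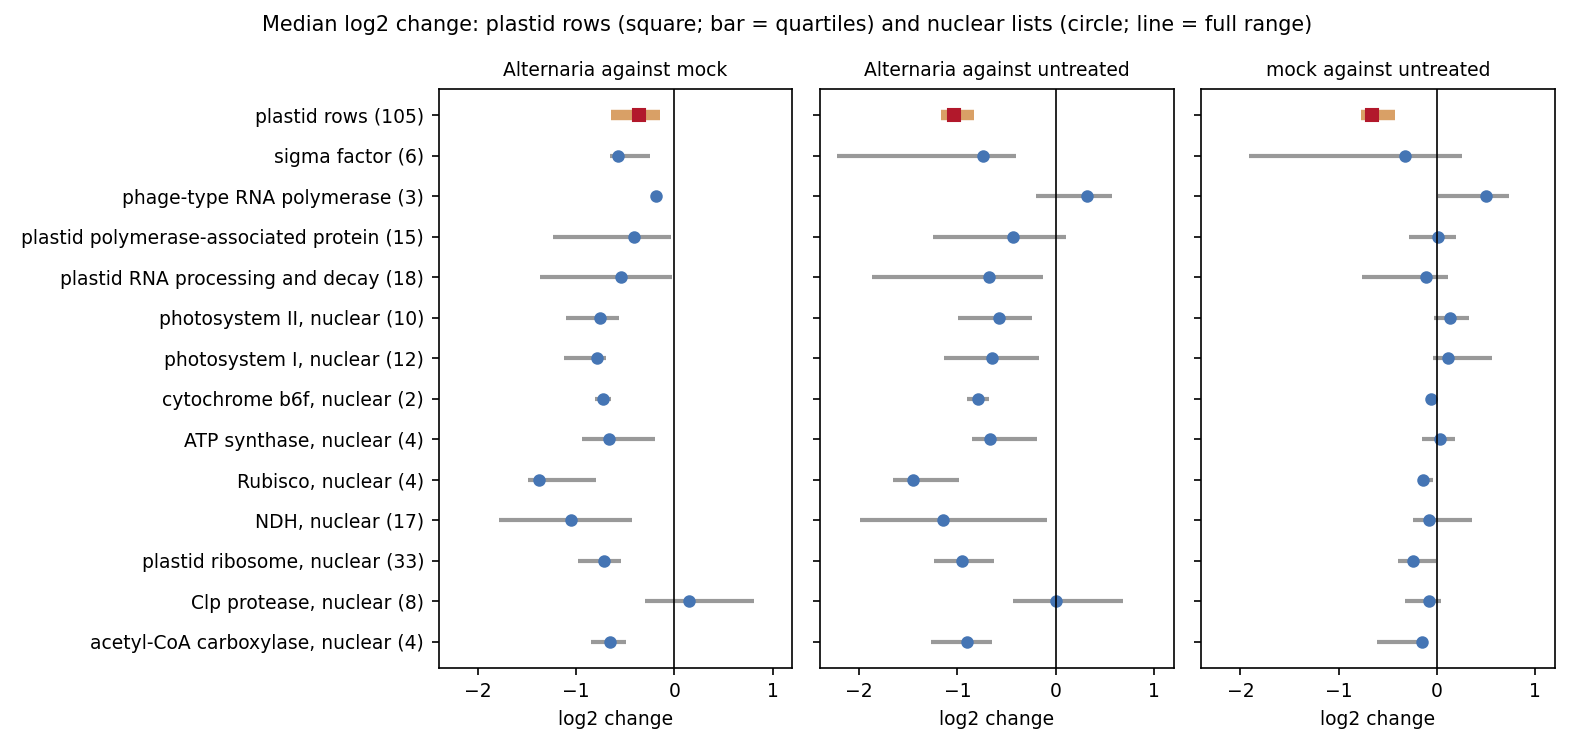
Median log2 change (horizontal axis) of the plastid rows (square, bar = quartiles) and of 13 nuclear gene lists (circle, line = lowest to highest gene, number tested in brackets) in the 3 comparisons. Plastid rows had medians of -0.36, -1.03 and -0.66 from left to right, and in mock against untreated they lie below every nuclear list median.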

How the data were processed

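The submitters' processing notes name FastQC, TopHat2 2.0.12, HTSeq, DESeq2 1.8.2 and the build TAIR10. The version of HTSeq, its strand setting and the annotation release are not stated there, so reads of overlapping or antisense genes may be split. Per the file headers and values, each deposited count table of the authors holds unnormalized counts for 1 library. The authors' deposited comparisons give log2 fold changes and p-values. Of those 6 tables, 3 were used, for numbers and directions of calls and for values of ATCG00490 and ATCG00950. Their headers name ratios such as mock/alternaria, but signs were read as the later-named group against the earlier one. Lines naming no gene (7.73 to 11.2% of a library) were left out.

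Genes passing filterByExpr (minimum count 10) were scaled by TMM. One edgeR 4.0.16 model (R 4.3.3) held all 9 libraries with a mean for each of the 3 groups, leaving 6 residual degrees of freedom. Contrasts were tested by quasi-likelihood F tests, with Benjamini-Hochberg adjustment over 22019 genes and a threshold of 0.05. Each SE was computed as |log2 change| / sqrt(F). CPM are TMM-scaled. The common biological coefficient of variation was 0.107. The procedure was tested on simulated counts in which few genes changed, up or down at random, and genes varied independently of each other. That setting is unlike these data, where many genes were called and plastid rows moved together. Shares and ratios were compared by two-sided exact permutation tests. RefSeq names came from TAIR10.1, used for names only. Other tools were DESeq2 1.42.0, limma 3.58.1, numpy 2.4.6, pandas 2.3.3, scipy 1.17.1 and matplotlib 3.10.9.

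The members, gene lists and tests were chosen with earlier results of these data known. Named rows were the 12 most abundant, examples among the 6 highest and 6 lowest changes of each comparison for tested rows of at least 5 CPM, and ATCG00670. Named nuclear genes were examples among the 3 largest called changes of each list, with SIG1, SIG5 and PNP whatever their p. The other rows with a reference name, the runs and the rows given for them were chosen after their values were seen. Shares by functional class were planned and not computed, since names are tied to 6 rows, and for the same reason the partner ratio uses all plastid rows.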

Additional observations from a re-analysis of the deposited data

How the results depend on the processing

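The plastid share differed between groups under each other denominator, without the most abundant row or rows and without each library (exact permutation p from 0.00357 to 0.0107). Alternaria minus untreated stood between -2.96 and -2.31 percentage points with 1 library left out. Scaling to plastid reads gave 12, 20 and 13 called rows in Alternaria versus mock, Alternaria versus untreated and mock versus untreated, by its construction a change of composition. Other scalings, filters and tools gave 44 to 62, 91 to 98 and 72 to 77, and the authors' deposited table gave 49, 93 and 74. With 1 library left out the counts were 28 to 53, 89 to 95 and 54 to 86. Calls over the 136 genes of the nuclear lists together were then 120 to 125, 120 to 126 and 24 to 45 (123, 126 and 46 with all libraries). Of all genes tested 55.6, 64.9 and 29.3% were called with all libraries. The nuclear count in mock against untreated was 30 without untreated replicate 2, 24 without mock replicate 2 and 29 without mock replicate 3.

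Replicate numbers did not pair the libraries: correlations of their deviations from the group means were -0.065 to 0.034 for same-numbered and -0.11 to 0.080 for other pairs. With the replicate block the counts were 49, 92 and 71, the plastid share and the partner ratio each gave p = 0.0278, and the plastid to mitochondrial ratio gave -1.15 at p = 0.0556 (0.00714 without the block, exact permutation). With 1 library left out that ratio, Alternaria minus untreated on the log2 scale, stood between -1.32 and -0.96 and the partner ratio between -0.26 and -0.061.

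Single genes were followed through the other scalings, filters, tools and fits and the leave-outs, but not the fit scaled to plastid reads. Of 96 single-gene calls 7 were lost under some of those alternatives and 0 changed sign, and the cause was not tested. Among estimates that were not called, ATCG00020 was at 0.037 in Alternaria versus mock and -0.037 in mock versus untreated under limma-voom. In Alternaria versus untreated it was at -0.18 under upper-quartile scaling, -0.016 with a filter of 1 CPM in 3 libraries and -0.000394 under limma-voom. ATCG00280 was at -0.0274 in Alternaria versus mock under upper-quartile scaling, and ATCG01020 at 0.0041 in mock versus untreated without a filter. With 1 library left out, ATCG00020 ranged from -0.46 to 0.61, -0.11 to 0.24 and -0.59 to 0.47 in the 3 comparisons. ATCG00490 ranged from -0.69 to 0.019 in Alternaria versus mock and -0.63 to 0.078 in mock versus untreated, ATCG00290 from -0.43 to 0.11 in Alternaria versus untreated, and ATCG01020 from -0.20 to 0.23 in mock versus untreated.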
